A study of Mus musculus with 5 samples.

Results

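The 8 genes described here encode the core of the mTOR, TSC and PI3K pathway. They are Mtor, Rptor, Rictor, Tsc1, Tsc2, Pik3ca, Akt1 and Rps6kb1, taken by symbol from the 10329 genes of a ribosome profiling count table, and all 8 were found. Ribosome profiling sequences the mRNA fragments that ribosomes protect from RNase (footprints), so a count stands for ribosomes on the coding sequence (CDS) and not for mRNA level. The tissue was hippocampal-cortical brain slices from wild-type male C57BL/6N mice at postnatal day 28 to 35. Slices of 400 µm recovered for 3 to 4 h and were then exposed to 20 µM homoharringtonine (HHT) for 0, 5, 10, 30 or 60 min. Each time point is 1 library from a pool of 10 slices of 2 to 3 mice, so no time point has a replicate, and whole-slice lysates mix neurons with all glia and vessels. HHT stops ribosomes at the start of the CDS, and those already further along finish and leave. Slices kept with the vehicle (0.05% DMSO) for 5 to 60 min were not analysed here, so time on HHT and time in the bath cannot be told apart.

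Mtor encodes the kinase shared by the complexes mTORC1 and mTORC2. Rptor (Raptor) is the subunit that brings substrates to mTORC1, and Rictor is the defining subunit of mTORC2. Growth factor receptors activate PI3K, whose catalytic alpha subunit is Pik3ca, and its lipid product recruits the kinase Akt1. Akt1 phosphorylates tuberin (Tsc2), which with its partner hamartin (Tsc1) restrains mTORC1 through the small GTPase Rheb. Active mTORC1 phosphorylates S6 kinase 1 (Rps6kb1) and promotes protein synthesis. In neurons the pathway is known for its part in synaptic plasticity and in cell size, and loss of either TSC gene causes tuberous sclerosis.

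Total counts ran from 1346175 at 60 min to 7155147 at 0 min, so counting error was widest at 60 min. The authors' signal is the count per kilobase of CDS, with 600 nt of the CDS left out, divided by 1 factor per library (0.828 to 1). Ratios of that signal to 0 min carry an exact 95% conditional binomial interval on the 2 counts. The interval covers counting error only, and the reads have no stated molecular identifiers. Neuronal markers had a median ratio of 0.215 at 60 min (5 of 6 listed in the count table), endothelial markers 0.182 (3 of 4), astrocyte markers 0.117 (5 of 5), oligodendrocyte markers 0.0539 (4 of 5) and microglial markers 0.0414 (6 of 6). The glial markers thus kept a smaller median share of their footprints than the neuronal ones, and how far this enters the values of the pathway genes, which many cell types express, was not tested. In such bulk tissue fewer cells of a type and fewer footprints per cell cannot be told apart.

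Before HHT the 8 genes lay in the middle of the count table, at percentiles 30.3 (Tsc1) to 60.5 (Akt1) by signal per kilobase. No gene of that table had under 11 counts at 0 min. By the authors' rounded TPM, a share of each library held for 18527 genes, they lay higher, at percentiles 58.9 (Pik3ca) to 81.8 (Mtor). Akt1 was highest with a signal of 321, followed by Tsc2 with 276, Mtor with 256, Rptor with 249, Rps6kb1 with 167, Rictor with 148, Pik3ca with 123 and Tsc1 with 103. Mtor and Rptor did not differ beyond counting error (Mtor over Rptor 1.03, 0.949 to 1.12), nor did Rps6kb1 and Rictor (1.13, 0.943 to 1.34). The interval of Tsc2 over Mtor began at 1.00, and the other neighbours in this order had intervals above 1. By 60 min the order was Tsc2 (52.4), Akt1 (41.4), Mtor (36.6), Rptor (36.2), Tsc1 (30.6), Rictor (26.6), Rps6kb1 (18.9) and Pik3ca (18.1). No neighbours in the 60 min order differed beyond counting error. Tsc1 stood last at 0 min and above Rictor, Rps6kb1 and Pik3ca at 60 min.

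The kinase gene Mtor kept most of its footprints for 10 min and then lost them. Mtor (NM_020009, chromosome 4, 148448582 to 148557685 in GRCm38.p6, CDS 7650 nt) had 1808, 1221, 1170, 305 and 251 counts in time order. Its signal relative to 0 min was 0.700 (0.650 to 0.753), 0.781 (0.725 to 0.842), 0.191 (0.169 to 0.216) and 0.143 (0.124 to 0.163) after 5, 10, 30 and 60 min of HHT. The 10 min library was thus slightly above the 5 min library for Mtor, at a ratio of 1.12 (1.03 to 1.21), and the 30 min library stood at 0.245 (0.215 to 0.278) of the 10 min one. Over all genes the median of the last of these steps was 0.834. Genes with a CDS within 10% of that of Mtor and at least 100 counts at 0 min took a similar course. The median ratios of these 93 genes were 0.664, 0.782, 0.278 and 0.203 at 5, 10, 30 and 60 min.

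The subunit genes that set the 2 complexes apart followed a similar course. Rptor (NM_028898, chromosome 11, 119602905 to 119899591, CDS 4008 nt) had 848, 444, 339, 138 and 120 counts, and ratios to 0 min of 0.542, 0.483 (0.424 to 0.548), 0.185 and 0.145 (0.119 to 0.176). Rictor (NM_030168, chromosome 15, 6708349 to 6800401, CDS 5127 nt) had 670, 408, 335, 127 and 117 counts, and ratios of 0.631, 0.604 (0.528 to 0.689), 0.215 and 0.179 (0.146 to 0.219). Both genes stood close to their 5 min level at 10 min and at under 0.4 of the 10 min level at 30 min, with steps of 0.382 for Rptor and 0.356 for Rictor.

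The 2 TSC genes changed order between 10 and 30 min. Tsc1, with the shorter CDS, had kept less of its signal than Tsc2 at 10 min and more at 30 and 60 min. Tsc2 (NM_001286713, chromosome 17, 24595816 to 24632676, CDS 5427 nt) had 1330, 841, 692, 257 and 246 counts, and ratios to 0 min of 0.655, 0.628 (0.572 to 0.689), 0.219 (0.191 to 0.251) and 0.190 (0.165 to 0.218). Tsc1 (NM_022887, chromosome 2, 28640993 to 28691172, CDS 3483 nt) had 296, 144, 104, 96 and 86 counts, and ratios of 0.504, 0.424 (0.336 to 0.532), 0.368 (0.289 to 0.465) and 0.299 (0.232 to 0.381). Tsc2 lost footprints between 10 and 30 min as Mtor did, with a step of 0.349 (0.301 to 0.403), whereas the Tsc1 step was 0.867 with an interval, 0.650 to 1.16, that includes no loss. At 60 min Tsc1 had the highest remaining ratio of the 8 genes, and its interval did not overlap that of any other.

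Pik3ca, the PI3K catalytic subunit, stood lower at each successive time up to 30 min. It had 321, 159, 77, 48 and 46 counts (NM_008839, chromosome 3, 32397065 to 32466112, CDS 3207 nt), and ratios of 0.513 (0.422 to 0.623), 0.290 (0.223 to 0.373), 0.170 and 0.147 (0.106 to 0.201). Its step between 5 and 10 min, 0.564 (0.424 to 0.746), was the lowest of the 8 genes over that interval. Pik3ca was therefore already low at 10 min, when Mtor, Rictor and Tsc2 still had over 0.6 of their signal.

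The kinases with short coding sequences, Akt1 and Rps6kb1, had lost most footprints by 5 min. Akt1 (NM_009652, chromosome 12, 112653821 to 112674884, CDS 1443 nt) had 271, 46, 39, 48 and 34 counts, and ratios of 0.176 (0.126 to 0.241), 0.174 (0.121 to 0.244), 0.201 (0.145 to 0.274) and 0.129 (0.0875 to 0.185). Rps6kb1 (NM_001114334, chromosome 11, 86498869 to 86544885, CDS 1578 nt) had 163, 37, 30, 22 and 18 counts, and ratios of 0.235 (0.160 to 0.338), 0.222, 0.153 and 0.113 (0.0656 to 0.185). After 5 min every further step of Akt1 and of Rps6kb1 had an interval that includes 1. Both rest on under 50 counts in each library after 0 min, so single steps cannot show a small later change. The trend fit described further on, with the authors' library factors and without the 0 min library, called Rps6kb1 lower (slope -0.31, edgeR adjusted p = 0.0364). It did not call Akt1 (-0.08, edgeR adjusted p = 0.564).

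**Figure D1:**
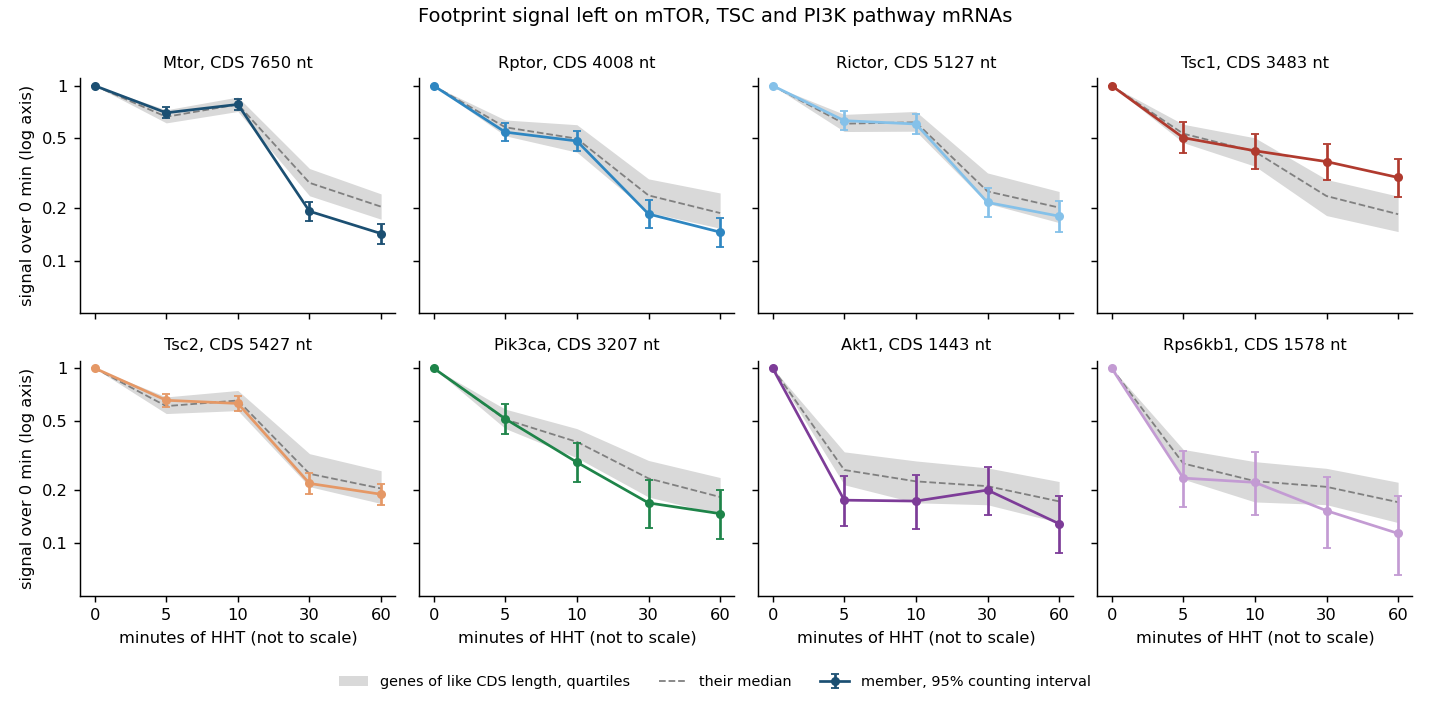
Signal relative to 0 min (log axis) against minutes of HHT (categories, not to scale) for each of the 8 genes; bars are 95% counting intervals, the dashed line and grey band are the median and quartiles of genes with a CDS within 10% of that length. Tsc1 leaves the band upward at 30 and 60 min (0.368 and 0.299), while Mtor leaves it downward (0.191 and 0.143). Rptor and Rps6kb1 at 30 and 60 min, Pik3ca at 10 and 30 min and Akt1 at 5 and 60 min also lie below their bands, some narrowly.

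As a group the 8 genes had median ratios of 0.528, 0.454, 0.196 and 0.146 at 5, 10, 30 and 60 min, beside 0.333, 0.268, 0.223 and 0.181 for all 10329 genes. At 5 and at 10 min 2 of 8 were below the all-gene median, at 30 min 7 of 8 and at 60 min 6 of 8. The wider pathway genes described further on had medians of 0.289 and 0.223 at 5 and 10 min, below those of all genes, so the early position of the 8 is not that of the wider pathway. At 5 min 2 of 8 had under 0.5 of their signal (Akt1 and Rps6kb1), where 78.1% of all genes did. At 10 min 5 of 8 did, where 84.3% of all genes did. At 30 and at 60 min 8 of 8 did, beside 95.4% and 97.3% of all genes, so those counts say nothing particular about the pathway.

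Coding length ordered the genes at the early times. At 5 min the ratio was lowest for Akt1 and Rps6kb1, between 0.504 and 0.542 for Tsc1, Pik3ca and Rptor, and highest for Rictor, Tsc2 and Mtor; only Pik3ca (0.513) and the slightly longer Tsc1 (0.504) departed from the order of length. Multiplied by the counted length, the missing share at 5 min came to 695 nt of Akt1, 748 nt of Rps6kb1, 1269 nt of Pik3ca, 1430 nt of Tsc1, 1559 nt of Rptor, 1665 nt of Tsc2, 1671 nt of Rictor and 2117 nt of Mtor. These lengths restate the ratios, since the deposited tables used here hold no positions within a CDS. Among genes with at least 100 counts at 0 min, the median ratio at 5 min was 0.242 for a CDS of 1000 nt to under 1500 nt and 0.654 for one of 6000 nt to under 8000 nt.

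Set against genes with at least 100 counts at 0 min and a CDS within 10% of its own length, most members sat near the middle at 5 and 10 min and spread out later. At 10 min Mtor was at percentile 49.5 of 93 such genes, Rptor at 46.2 of 357, Rictor at 41.9 of 203, Tsc2 at 43.6 of 181, Tsc1 at 51.9 of 503 and Rps6kb1 at 48.3 of 1002. Pik3ca, at percentile 19.1 of 551, and Akt1, at 26.8 of 1005, were lower in their length class at that time. Akt1 was lower still at 5 min, at percentile 7.86, with 0.176 against a class median of 0.262.

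At 60 min the ends of the range were Tsc1 and Mtor. Tsc1 was at percentile 91.3 of its length class at 30 min and 91.1 at 60 min, with 0.299 against a class median of 0.184. Mtor was at percentiles 10.8 and 9.68, with 0.143 against 0.203 at 60 min. The other members lay between percentiles 14.9 (Rps6kb1) and 42.0 (Tsc2) at 60 min, so 7 of 8 were below the median of their class. These percentiles describe single libraries and carry no test.

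**Figure D2:**
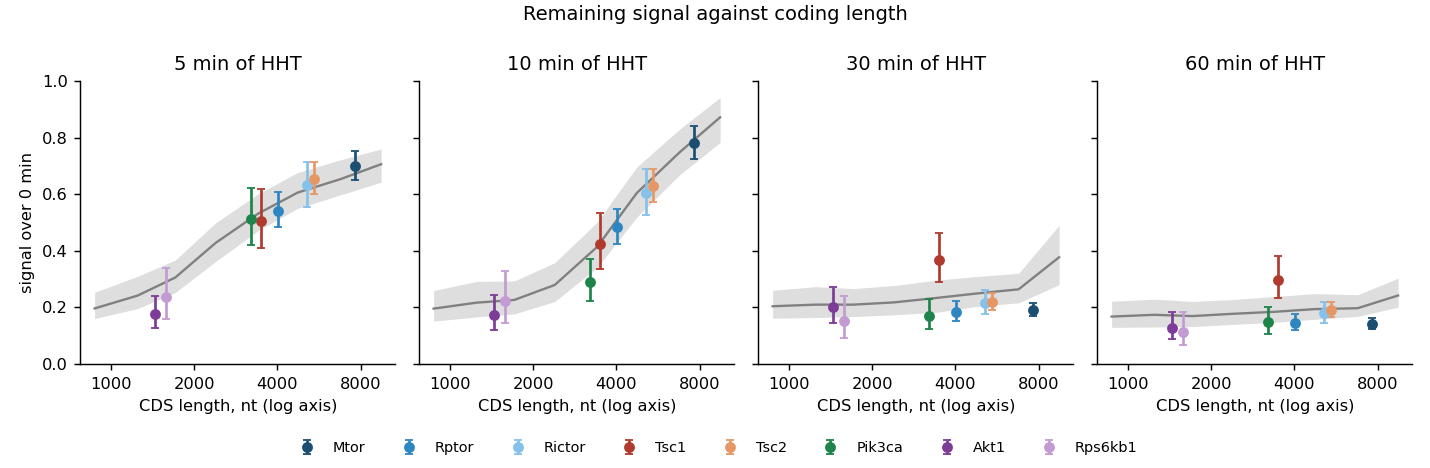
Signal relative to 0 min against CDS length (log axis) at 4 times of HHT; points are the 8 genes with 95% counting intervals, the line and band are the median and quartiles of length bins of genes with at least 100 counts at 0 min. Most of the 8 genes lie in the band at 5 and 10 min, with Akt1 (0.176) and, narrowly, Rps6kb1 (0.235) below it at 5 min and Pik3ca (0.290) at 10 min; at 60 min Tsc1 (0.299) stands above it, and Mtor (0.143), Rptor (0.145), Rps6kb1 (0.113) and, narrowly, Akt1 (0.129) below.

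The only test that 1 library per time allows is the trend over all 5 libraries, fitted for each gene as a slope on log2(minutes + 1) with edgeR's quasi-likelihood test and Benjamini-Hochberg adjustment over 9444 genes. With the authors' library factors all 8 genes fell. So did 94.2% of all genes tested, and the count of 8 is read against that share. The slope of Mtor, in log2 signal for each unit of log2(minutes + 1), was -0.50 (SE 0.115, adjusted p = 0.00124), that of Rptor -0.49 (SE 0.081, adjusted p = 2.48e-04) and that of Rictor -0.44 (SE 0.088, adjusted p = 5.54e-04). Tsc2 had -0.43 (SE 0.089, adjusted p = 6.46e-04) and Tsc1 the shallowest slope, -0.29 (SE 0.074, adjusted p = 0.00255). Pik3ca had -0.49 (SE 0.080, adjusted p = 2.20e-04), Akt1 -0.47 (SE 0.095, adjusted p = 5.99e-04) and Rps6kb1 the steepest, -0.53 (SE 0.091, adjusted p = 2.76e-04). The median slope of all genes was -0.41. On minutes in place of log2(minutes + 1) 0 of 8 passed, beside 0.254% of all genes, and 7 of 8 had an unadjusted p under 0.05, beside 39.3% of all genes.

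With TMM scaling, which sets the typical gene level, the slope asks whether a gene trended steadily relative to other mRNAs. On this slope 0 of 8 genes were called (edgeR quasi-likelihood test). A rise followed by a fall can cancel in a straight slope, so the 0 of 8 does not show that no member moved. None of the 8 had an unadjusted p under 0.05 in either direction, and DESeq2's Wald test and limma on log2(TPM + 1) called 0 of 8 as well. Of all genes 0.0106% were called lower and 0.00% higher. The 7 negative slopes ran from -0.11 for Mtor (adjusted p = 0.865) and Rps6kb1 (adjusted p = 0.559) to -0.04 for Tsc2 (adjusted p = 0.941). Tsc1 was the 1 member with a positive slope, 0.12 (SE 0.061, adjusted p = 0.487). On the same scale the log2 fold of 60 min against 0 min was 0.70 (0.34 to 1.06) for Tsc1, -0.36 (-0.56 to -0.17) for Mtor and -0.33 (-0.62 to -0.05) for Rptor. It was -0.66 for Rps6kb1, -0.49 for Akt1, -0.31 for Pik3ca, -0.03 for Rictor and 0.05 for Tsc2, each with an interval that includes 0. No member was 2-fold apart at 60 min, a size that 5.25% of 7032 genes with at least 100 counts at 0 min passed downward and 3.73% upward. At 10 min the TMM-scaled log2 fold against 0 min was 1.55 (1.44 to 1.66) for Mtor, 1.23 for Tsc2 and 1.17 for Rictor. Rptor had 0.85, Tsc1 0.66, Pik3ca 0.12, Rps6kb1 -0.25 and Akt1 -0.60 at that time.

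**Figure D3:**
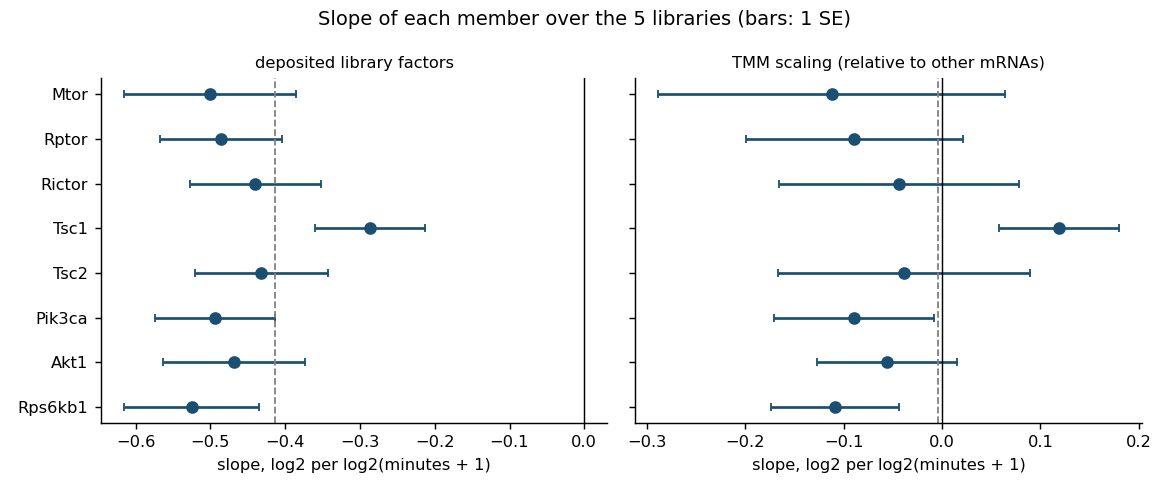
Slope of each of the 8 genes over the 5 libraries, in log2 signal for each unit of log2(minutes + 1), with the authors' library factors (left) and with TMM scaling (right); bars are 1 SE, the dashed line is the median of all genes and the solid line is 0. All 8 are below 0 on the left, from -0.53 (Rps6kb1) to -0.29 (Tsc1), and Tsc1 (0.12) alone is above 0 on the right.

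Calls relative to other mRNAs changed when the 0 min library was left out. Within 5 to 60 min of HHT, the TMM-scaled test called 5 of 8 members lower and 0 higher, beside 10.1% of all genes lower and 5.10% higher. The 5 were Mtor (slope -0.56, SE 0.117, edgeR adjusted p = 0.0124), Rptor (-0.37, SE 0.089, adjusted p = 0.0188), Rictor (-0.36, SE 0.094, adjusted p = 0.0245), Tsc2 (-0.36, SE 0.097, adjusted p = 0.0274) and Pik3ca (-0.29, SE 0.090, adjusted p = 0.0422). Genes of like length often did the same: 54.8% of those near Mtor were called lower, 46.8% near Rptor, 48.8% near Rictor, 46.4% near Tsc2 and 30.5% near Pik3ca. The call on these 5 members is therefore shared by a large part of mRNAs as long as theirs.

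Tsc1 was not called in that fit (slope 0.04, SE 0.079, edgeR adjusted p = 0.725), while 37.8% of 503 genes of like length were called lower and their median slope was -0.21. Akt1 (0.17, SE 0.105, adjusted p = 0.263) and Rps6kb1 (-0.06, SE 0.116, adjusted p = 0.747) were not called either. Of genes of like length, 0.902% near Akt1 and 0.803% near Rps6kb1 were called lower, and 4.21% and 2.51% higher. With the authors' library factors and without the 0 min library 7 of 8 members fell, all but Akt1, beside 47.7% of all genes.

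Ratios of 2 genes within a library do not depend on how libraries are scaled, and 12 pairs were formed at 5 times. With that many ratios, some intervals on a change from 0 min are expected to miss 1 through counting error alone. Tsc1 over Tsc2, per counted length, was 0.373 (0.327 to 0.423), 0.287 (0.239 to 0.342), 0.252 (0.203 to 0.310), 0.625 (0.489 to 0.794) and 0.585 (0.452 to 0.751) in time order. Relative to 0 min the Tsc1:Tsc2 ratio was lower at 10 min, at 0.675 (0.525 to 0.864) of its start, and higher at 60 min, at 1.57 (1.18 to 2.08). The same turn was present in the authors' rounded TPM, where the ratio was 0.536, 0.279, 0.355, 0.731 and 0.962 over the same libraries.

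The subunits that define mTORC1 and mTORC2 were compared next. Rptor over Rictor was 1.68 (1.52 to 1.86), 1.45, 1.34, 1.44 and 1.36 (1.05 to 1.77) in time order, with changes from 0 min of 0.80 (0.664 to 0.963) at 10 min and 0.810 (0.610 to 1.08) at 60 min. In the rounded TPM the Rptor:Rictor ratio was 3.00, 2.19, 1.68, 3.46 and 2.46, higher throughout and above its start at 30 min, so its level and course depend on the table. Mtor over Rptor was 1.03, 1.33, 1.67 (1.48 to 1.89), 1.07 and 1.01 (0.810 to 1.27), so the longer Mtor CDS was ahead at 5 and 10 min and level again at 60 min. In the rounded TPM, Mtor over Rptor was 1.13, 0.882, 1.35, 0.822 and 0.688 in time order. Its direction at 5 min and its return to level at 60 min thus depend on the table. The mTORC2 subunit Mapkap1 (SIN1) over Rictor was 1.12, 0.504, 0.446, 1.36 and 0.839, and Mlst8, a subunit of both complexes, over Mtor was 1.49, 0.424, 0.332, 1.33 and 1.92. On the whole CDS length the ratio at 0 min was 0.780 for Mapkap1:Rictor and 0.630 for Mlst8:Mtor. In the rounded TPM it was 1.20 and 0.824, so which gene of these pairs was higher at 0 min depends on the unit. The same holds at 30 min, with 0.952 and 0.562 on the whole CDS length and 1.46 and 0.784 in the rounded TPM. At 60 min it holds for Mlst8:Mtor, with 0.808 and 1.68. The short partners Mapkap1 and Mlst8 were both low at 5 and 10 min. Their ratios at 60 min differed from those at 0 min by less than counting error (changes of 0.752, 0.435 to 1.25, and 1.28, 0.794 to 2.00).

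**Figure D4:**
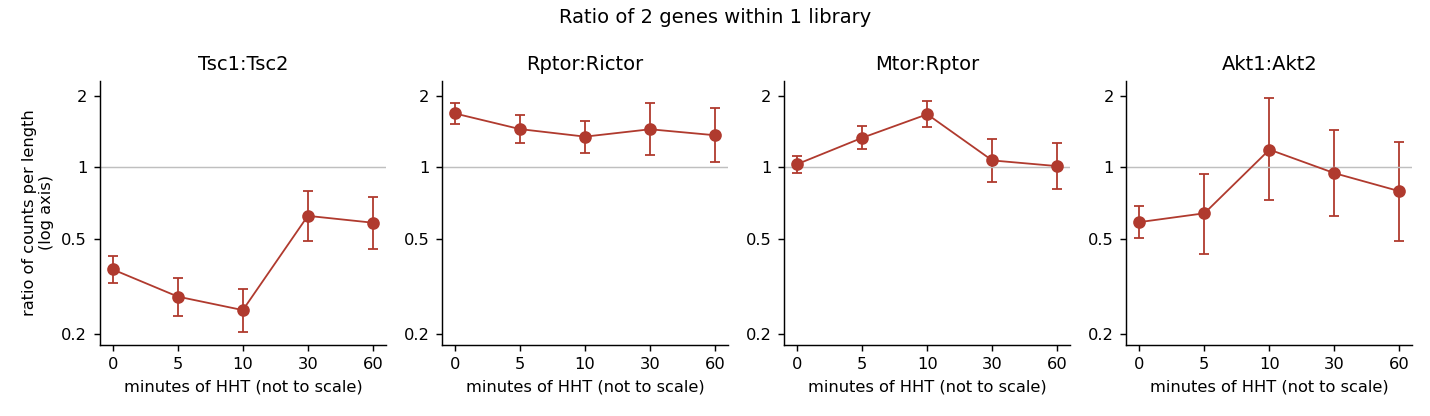
Ratio of 2 genes in counts per counted length within each library (log axis) against minutes of HHT (categories, not to scale), with 95% counting intervals; the grey line marks equal signal. Tsc1:Tsc2 is lowest at 10 min (0.252) and highest at 30 min (0.625), Mtor:Rptor peaks at 10 min (1.67), and Akt1:Akt2 is lowest at 0 min (0.589).

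Akt1 and its paralog Akt2, an isoform known for insulin-dependent glucose uptake, have coding sequences of nearly one length, 1443 nt and 1446 nt. Akt2 had 462, 72, 33, 51 and 43 counts in time order and ratios to 0 min of 0.161, 0.0863, 0.125 and 0.0956. Akt1 over Akt2 was 0.589 (0.505 to 0.685), 0.641 (0.433 to 0.941), 1.19 (0.727 to 1.95), 0.945 (0.623 to 1.43) and 0.794 (0.491 to 1.27). The ratio was thus below 1 at 0 and 5 min, and from 10 min on its interval included 1. Relative to 0 min it stood at 2.01 (1.20 to 3.39) at 10 min, and at 1.35 with an interval that includes 1 (0.812 to 2.22) at 60 min. In the rounded TPM the pair had 0.532, 0.526, 0.513, 0.824 and 0.457 in time order. The difference at 10 min was thus not present in that table, and the ratio there was lowest at 60 min. The counting of reads shared between paralogs is not stated, so the split between Akt1 and Akt2 is uncertain.

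Other paralogs and partners of the members ran as follows. Pik3cb, the beta catalytic subunit (CDS 3195 nt), had ratios of 0.447, 0.322, 0.171 and 0.142, and Pik3ca over Pik3cb was between 1.28 and 1.63 in the 5 libraries, with every change from 0 min inside counting error. Pik3r1, the regulatory subunit that binds and stabilises the catalytic one, had 1564, 436, 248, 248 and 224 counts. Pik3ca over Pik3r1 was 0.124, 0.220, 0.188, 0.117 and 0.124 in time order. Footprints per length were thus several times denser on Pik3r1 than on Pik3ca in every library, and the ratio at 60 min was that at 0 min (change 1.00, 0.696 to 1.41). Rps6kb2, which encodes S6 kinase 2, had 37, 2, 3, 8 and 3 counts. Rps6kb1 over Rps6kb2 was 3.86 (2.69 to 5.68) at 0 min, and its interval lay above 1 in every library. The counts are too few to follow the ratio over time, as every change from 0 min had an interval that includes 1.

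The genes whose 4 ratios lay closest to those of a member were found among 6493 genes with at least 20 counts in every library, by Euclidean distance of log2 ratios. For Mtor these were Pi4ka (distance 0.114) and Usp9x (0.163), for Rptor Setbp1 (0.0752) and Kdm4a (0.132), and for Pik3ca Ube4a (0.123) and Pelp1 (0.129). Rictor and Tsc2 were near each other (0.118), and Scaf1 was the closest gene to both (0.103 and 0.0464). The nearest to Tsc1 were Fbf1 (0.0725), whose ratios were 0.499, 0.440, 0.356 and 0.301, and Tmtc1 (0.101). Those of Akt1 were Ccnh (0.129) and Necap1 (0.137), and those of Rps6kb1, itself under the count minimum with 18 counts at 60 min, B3gnt2 (0.194) and Fads2 (0.205). Among the members themselves Mtor and Akt1 were farthest apart (2.95). Counting error alone separates genes at these depths, so the order of near neighbours is loose.

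In the authors' rounded TPM, where a value is a share of each library, the members took other courses. Tsc1 had 15, 17, 22, 19 and 25 TPM in time order and was the 1 member with more TPM at 60 min than at 0 min. Mtor had 51, 60, 70, 37 and 22 TPM, and Rptor 45, 68, 52, 45 and 32. Mtor was thus highest at 10 min on this scale and lowest at 60 min. Tsc2 had 28, 61, 62, 26 and 26 TPM, Rictor 15, 31, 31, 13 and 13, and Pik3ca 12, 22, 13, 9 and 9. Akt1 had 33, 20, 20, 28 and 21 TPM and Rps6kb1 19, 13, 15, 12 and 14. The 6 members with a CDS of over 3000 nt were above their 0 min TPM at 5 min, and the 2 shorter ones were below it at every later time. Per-length order at 0 min also differed, with Mtor and Rptor above Akt1 and Tsc2 in TPM, although signal and TPM ranked 7032 genes alike (Spearman's rho 0.975 across genes, which are not independent).

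Around the 8 members, 83 further genes of the mTOR, PI3K and AMPK pathways were listed, of which 71 were in the count table and 69 were tested. With the authors' library factors 67 of 69 fell (edgeR quasi-likelihood test, adjusted p under 0.05), beside the 94.2% of all genes, with a median slope of -0.44. The 2 tested genes that did not pass were Prr5, an mTORC2 subunit with 80, 57, 77, 55 and 38 counts (slope -0.13, adjusted p = 0.240), and Rragd. Relative to other mRNAs, with TMM scaling, 0 of 69 were called by edgeR, DESeq2 and limma alike, and 4 falling and 5 rising slopes had an unadjusted p under 0.05 in edgeR, where 5.48% and 6.75% of all genes did. The median log2 fold of 60 min against 0 min over the 71 genes was -0.16, and 51 of 71 were below 0. Rheb, the direct target of the TSC complex, the translational repressors Eif4ebp1 and Eif4ebp2 and the 5 Lamtor genes were not in the count table and were not analysed here.

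Among listed genes with at least 100 counts at 0 min, Rragd had the highest and Tfeb the lowest fold at 60 min. Rragd, a Rag GTPase that helps bring mTORC1 to the lysosome, had 233, 45, 59, 145 and 143 counts and ratios of 0.20, 0.306, 0.706 and 0.631, so more of its signal was present at 30 and 60 min than at 5 min. Its log2 fold of 60 min against 0 min was 1.76 (1.47 to 2.09) on the TMM scale, and its slope with the authors' library factors, -0.07, missed the threshold (edgeR adjusted p = 0.532). The other Rag genes had folds of -0.80 (Rraga), -0.87 (Rragb) and 0.20 (Rragc). Flcn, folliculin, known to act on that GTPase, had 361, 56, 37, 31 and 34 counts and the lowest fold of the nutrient-sensing group, -0.90 (-1.47 to -0.41). Tfeb, the transcription factor of lysosomal genes that mTORC1 keeps in the cytosol, had 150, 15, 10, 5 and 6 counts, a remaining ratio of 0.0411 at 60 min and the lowest fold of the mTORC1 substrate group, -2.0 (-3.62 to -1.0). In the TMM-scaled fit over 5 libraries neither Rragd (slope 0.34, edgeR adjusted p = 0.208) nor Tfeb (-0.44, adjusted p = 0.103) was called.

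The extremes of the other groups are likewise given among genes with at least 100 counts at 0 min. Of the mTOR complex subunits Akt1s1 (PRAS40), an mTORC1 inhibitor and Akt substrate, had the highest fold, 1.20 (0.74 to 1.71), from 124, 36, 33, 34 and 52 counts, and Mapkap1 the lowest, -0.42 (-1.17 to 0.22). Prr5, with 80 counts at 0 min, had a higher fold than Akt1s1, 1.36 (0.82 to 1.99), and Prr5l, with 24, a lower one than Mapkap1, -0.83 (-4.22 to 0.91). Tbc1d7, the third TSC subunit, had 111, 23, 15, 13 and 14 counts and a fold of -0.47 (-1.42 to 0.31). Its ratio at 60 min, 0.130, was on the side of Tsc2 and not of Tsc1. In the PI3K group Inpp5d (SHIP1), a phosphatase of blood cells and microglia, was lowest with 196, 44, 19, 6 and 12 counts and a fold of -1.47 (-2.52 to -0.70), and Pik3r2, a regulatory subunit, was highest at -0.05. Pik3cd, the delta catalytic subunit, with 93 counts at 0 min, had 0.33 (-0.42 to 1.04). The microglial markers had a median fold of -2.07 at 60 min, and their part in the Inpp5d value was not tested.

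Upstream, the adaptor Irs2 had 3007, 1581, 1368, 351 and 316 counts and a fold of -0.76 (-0.93 to -0.59), the lowest of the receptors and adaptors, and the insulin receptor Insr had 0.36 (0.11 to 0.61), the highest. Of the Akt group Akt2 was lowest at -0.92 (-1.42 to -0.48) and Gsk3a, a kinase that Akt inhibits, highest at 0.78 (0.62 to 0.94), with 1361, 447, 271, 291 and 417 counts. Ulk2, an autophagy kinase, had the highest fold of the mTORC1 substrate group, 0.54 (0.21 to 0.88). The AMPK subunits parted: Prkag2, a regulatory gamma subunit, had 729, 279, 286, 257 and 308 counts and a fold of 1.24 (1.05 to 1.44), while its paralog Prkag1 had 230, 54, 36, 48 and 18 counts and a fold of -1.15 (-1.97 to -0.49). The AMPK beta subunit Prkab1, with 85 counts at 0 min, had -1.21 (-2.82 to -0.15). Of 65 listed genes with at least 100 counts at 0 min, 3 were at least 2-fold higher at 60 min (Akt1s1, Rragd and Prkag2) and 4 at least 2-fold lower (Tfeb, Inpp5d, Prkag1 and Eef2k, the kinase of elongation factor 2, at -1.09). Those shares are read beside the 3.73% higher and 5.25% lower of all genes, and none of the 7 was called on the TMM-scaled slope.

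**Figure D5:**
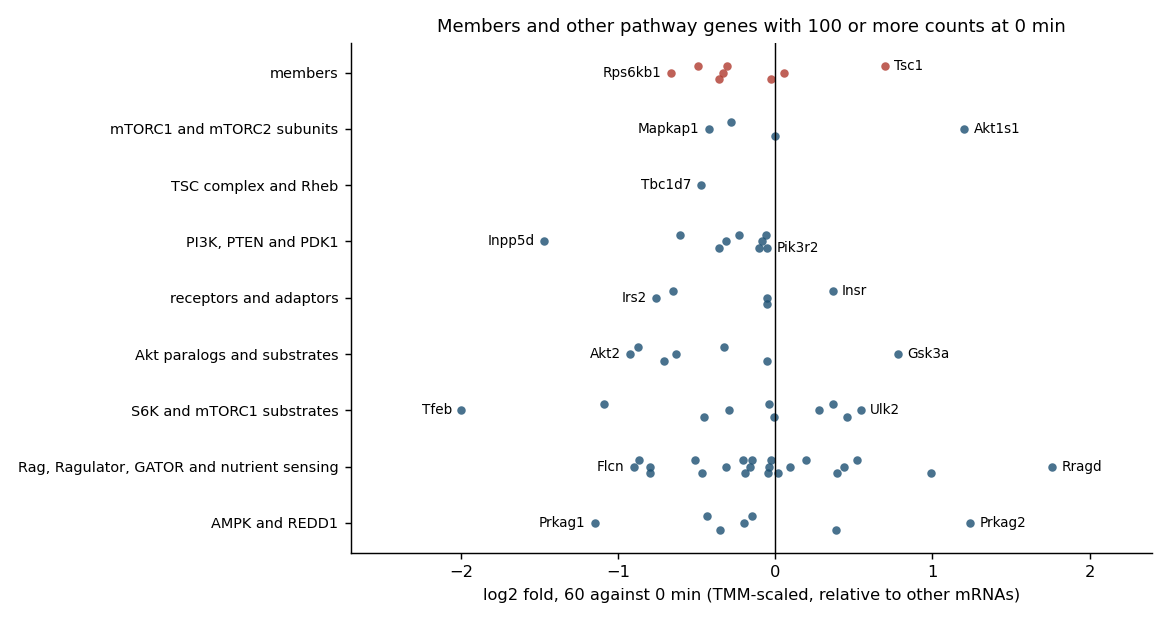
Log2 fold of 60 min against 0 min with TMM scaling for the 8 members (red) and for other pathway genes with at least 100 counts at 0 min (blue), by role; each point is 1 gene from 1 library per time, and the lowest and highest of each role are named. Folds run from -2.0 (Tfeb) to 1.76 (Rragd), and the members from -0.66 (Rps6kb1) to 0.70 (Tsc1).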

How the data were processed

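Footprint libraries of 5 HHT times, 1 per time, were grouped by sample title. The build was mm10, per the submitters' processing notes, which name TopHat2 2.0.9, Bowtie2 2.1.0, SAMtools 0.0.19, Trimmomatic 0.32 and cutadapt 1.7.1 without their roles. Expected counts per gene were deposited by the authors as whole numbers, so rounding changed none. They deposited a signal, which recomputation showed to equal the count per kilobase of CDS less 600 nt over 1 factor per library of unstated origin. Their deposited ratio columns divide that signal by its 0 min value. A second deposited table holds TPM rounded to whole numbers, treated as a score. Snap25, an abundant neuronal gene, is listed there at 0, so a 0 was not read as absence.

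The members, the gene lists and the tests were chosen with earlier results of these data known. Slopes were fitted with edgeR 4.0.16 in R 4.3.3 (quasi-likelihood test, genes with a mean of at least 10 counts, threshold 0.05 after Benjamini-Hochberg adjustment), which was tested on simulated data. The fit has 3 residual degrees of freedom, which hold library scatter and departure from a straight line together. TMM-scaled folds used a prior count of 2. Alternatives used DESeq2 1.42.0 and limma 3.58.1, mitochondrial factors from 6 genes, another time scale, other filters and prior counts, and leaving out each library. Intervals are exact conditional binomial (95%). All members are named, and of the wider list the lowest and highest fold of each role among genes with at least 100 counts at 0 min, the paralogs, and genes nearest to each member (1 gene is not reported here); Prr5, Prr5l, Pik3cd, Prkab1, Rraga, Rragb, Rragc and Eef2k were added after their values were seen. Positions are from the GRCm38.p6 annotation. List genes under older symbols were matched through it (Castor2 was listed as Gatsl2).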

Additional observations from a re-analysis of the deposited data

How the results depend on the processing

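No paired analysis was possible because each time point has 1 library and no replicate numbers are shared. Calls depended on the scaling, on the time scale and on whether the 0 min library was included. The authors' factors gave 8 members and 67 wider genes lower, beside 8900 of all 9444 genes tested. DESeq2 size factors gave 0 and 0, beside 3 of 9444 genes. Minutes in place of log2(minutes + 1) also gave 0 and 0, beside 24 of 9444. With the authors' factors and without single libraries, 7 to 8 members and 35 to 67 wider genes were lower. The lowest counts were those without 0 min, beside 4114 of 8631 genes. With TMM scaling 0 and 0 were called, beside 1 of 9444 genes. Mitochondrial factors in its place gave 8 and 67, beside 8828 of 9444 genes lower. The authors' factors in its place, an alternative added after seeing the data, gave 8 and 67. With TMM scaling and without single libraries 0 to 5 and 0 to 13 were called. The highest counts were those without 0 min, beside 874 lower and 440 higher of 8631 genes. DESeq2 size factors turned the Tsc1 slope to 0.12, and the mitochondrial and authors' factors turned its TMM slope to -0.28 and -0.29. Without single libraries the TMM slopes ranged from -0.093 to 0.17 for Akt1, -0.56 to 0.092 for Mtor, -0.37 to 0.012 for Rptor, -0.36 to 0.072 for Rictor and -0.36 to 0.079 for Tsc2; none of the positive ones passed the test. The rounded TPM, a share of each library, gave median ratios of the members of 1.34, 1.26, 0.858 and 0.743, a Tsc1:Tsc2 ratio of 0.962 at 60 min and 0.536 at 0 min, and a Rptor:Rictor ratio of 2.46 and 3.00 at those times. Of the values of single genes and pairs under all alternatives, 274 kept their direction and side of the threshold or moved within their interval, 57 moved further, 19 passed the threshold newly, 16 no longer passed and 10 changed sign. The causes of the differences between the tables were not tested. Depth limits Akt1, Rps6kb1, Pik3ca and Tsc1, each under 100 counts at 30 and 60 min.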
